A study of Rattus norvegicus with 6 samples.

Results

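The miR-200 family was followed in small RNA sequencing of the liver of 6 Wistar rats, 3 with nonalcoholic fatty liver disease (NAFLD) and 3 normal. It has 5 members, rno-miR-200a-3p, rno-miR-200b-3p, rno-miR-200c-3p, rno-miR-141-3p and rno-miR-429, out of 678 mature rat miRNAs that could be told apart by their first 18 bases. A read was given to a member when its first 18 bases were those of the mature 3p miRNA, whatever followed at the 3′ end, and levels are given as TPM, the reads of a miRNA per 1000000 clean reads of the library. The NAFLD rats had been fasted and then fed a starch-rich diet for a week, the normal rats had a standard diet, and each library came from 1 rat. All rats were male Wistar rats, given as 4 months old by the sample labels, while the study's methods give an older age. The NAFLD livers were picked for high triglycerides and the normal ones without such a choice, so the groups stand for a selected and an unselected set of a diet model.

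MicroRNAs of the miR-200 family are known as markers and keepers of the epithelial state. They bind the mRNAs of the transcription factors ZEB1 and ZEB2, repressors of E-cadherin, and ZEB1 and ZEB2 in turn repress the miR-200 genes. In liver the family is known mainly from cholangiocytes, the epithelial cells that line the bile ducts, while hepatocytes, which make up most of the tissue, carry much miR-122. A whole liver library mixes all of these cells, so fewer cells of a type and less RNA per cell cannot be told apart.

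A miRNA finds its targets largely through its seed, bases 2 to 8 from the 5′ end, and the family holds 2 seeds. rno-miR-200b-3p, rno-miR-200c-3p and rno-miR-429 share the seed AAUACUG, and rno-miR-200a-3p and rno-miR-141-3p share the seed AACACUG. The mature RefSeq sequences below, 1 for each class, are shown because a single base inside the seed separates them, and capitals mark the seed.
rno-miR-200c-3p: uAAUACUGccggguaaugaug
rno-miR-141-3p: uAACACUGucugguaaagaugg

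The genes lie in 2 clusters, and the clusters cut across the seed classes. In the GRCr8 build the hairpins of rno-miR-200b-3p (chr5:171931495-171931589), rno-miR-200a-3p (chr5:171930717-171930805) and rno-miR-429 (chr5:171929682-171929766) lay on the minus strand of chromosome 5 within 1908 bases. The hairpins of rno-miR-200c-3p (chr4:159209965-159210033) and rno-miR-141-3p (chr4:159209525-159209618) lay on the minus strand of chromosome 4 within 509 bases. Within a seed class the members differ little over the first 18 bases, and positions are counted here from 1 at the mature 5′ end, in DNA letters. rno-miR-141-3p differed from rno-miR-200a-3p by C17A only, rno-miR-200c-3p from rno-miR-200b-3p by T11G only, and rno-miR-429 from rno-miR-200b-3p by C9T only.

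The libraries held 11601058 to 11880695 clean reads each, of which 75.7% to 91.3% began with a listed mature miRNA. The distinct reads numbered 413022 to 467746 in the NAFLD libraries and 221610 to 264974 in the normal ones, without overlap. By their substitutions, the libraries fell into sets that cut across the groups. In NAFLD 2, NAFLD 3 and normal 2, a median of 31.4% to 31.7% of the reads of 50 abundant miRNAs carried 1 substitution in the first 18 bases, against 1.12% to 1.57% in NAFLD 1, normal 1 and normal 3. These reads are missed when an exact match is asked for, so results on the members are also given with up to 1 substitution allowed. rno-miR-122-5p, the chief miRNA of hepatocytes, made up 445063 to 465119 TPM in the NAFLD libraries and 560716 to 595583 TPM in the normal ones.

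All members were minor miRNAs of these livers. Over the 6 libraries rno-miR-200a-3p had 955 reads, rno-miR-200b-3p 468, rno-miR-429 192, rno-miR-200c-3p 135 and rno-miR-141-3p 6. Their mean levels of 13.5, 6.60, 2.71, 1.90 and 0.0847 TPM ranked 82, 105, 129, 145 and 269 among the 678 miRNAs. Their neighbours in that order did not differ from them beyond the spread over the 6 libraries. rno-miR-200a-3p, for example, at 13.5 ± 5.87 TPM (SD, n = 6), stood between rno-miR-342-3p at 13.7 TPM and rno-miR-186-5p at 12.0 TPM, and rno-miR-200c-3p, at 1.90 ± 0.757 TPM (SD, n = 6), between rno-miR-193b-3p at 1.93 TPM and rno-miR-351-5p at 1.80 TPM. Within the family, the order rno-miR-200a-3p, rno-miR-200b-3p, then rno-miR-429 and rno-miR-200c-3p, then rno-miR-141-3p was met in all 6 libraries, except that rno-miR-429 and rno-miR-200c-3p had 21 reads each in normal 2.

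The chromosome 5 cluster gave most of these reads. Its share of the family was 93.6%, 93.6% and 92.3% in NAFLD 1, 2 and 3, and 93.7%, 89.1% and 87.8% in normal 1, 2 and 3, with overlap between the groups. Both neighbours on chromosome 4 were low, rno-miR-141-3p far more so than rno-miR-200c-3p.

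rno-miR-200a-3p, the most abundant member, stood at 16.6, 6.97 and 15.0 TPM in NAFLD 1, 2 and 3 and at 22.5, 7.58 and 12.3 TPM in normal 1, 2 and 3. The groups overlapped fully, and the replicate 2 library was the lowest of both. The means were 12.9 ± 5.17 and 14.1 ± 7.64 TPM (SD, n = 3 each), with a log2 fold change of -0.14 (SE 0.49) and an adjusted p of 0.986 by edgeR's quasi-likelihood test. Its sign changed with the libraries and the counting, since the log2 fold change was 0.16 without NAFLD 2, 0.37 without normal 1, 0.13 with up to 1 substitution and 0.22 with the substitution sets as a covariate.

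rno-miR-200b-3p stood at 4.74, 3.23 and 7.53 TPM in NAFLD 1, 2 and 3 and at 13.1, 5.05 and 5.98 TPM in normal 1, 2 and 3. Normal 1 was the highest of all, and NAFLD 3 was above the other 2 normal libraries. The means were 5.17 ± 2.18 and 8.04 ± 4.39 TPM (SD, n = 3 each), with a log2 fold change of -0.64 (SE 0.48, edgeR adjusted p 0.986). The log2 fold change was -0.093 without normal 1, -0.39 without NAFLD 2, -1.01 without NAFLD 3 and -0.41 with up to 1 substitution.

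rno-miR-429, transcribed from the same cluster, stood at 2.59, 1.02 and 1.95 TPM in NAFLD 1, 2 and 3 and at 5.91, 1.77 and 3.03 TPM in normal 1, 2 and 3. Both NAFLD 1 and NAFLD 3 were above normal 2, and normal 1 was again the highest. The means were 1.85 ± 0.787 and 3.57 ± 2.12 TPM (SD, n = 3 each), with a log2 fold change of -0.94 (SE 0.52, edgeR adjusted p 0.986), the largest of the members in size. It was -0.37 without normal 1, -1.27 without normal 2 and -0.68 with up to 1 substitution.

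rno-miR-200c-3p, of the chromosome 4 cluster, stood at 1.55, 0.765 and 1.86 TPM in NAFLD 1, 2 and 3 and at 2.62, 1.77 and 2.86 TPM in normal 1, 2 and 3. The groups overlapped by 1 library, NAFLD 3 above normal 2. With 9 to 34 reads a library, the 95% Wilson interval of NAFLD 2 ran from 0.403 to 1.45 TPM and that of normal 3 from 2.05 to 4.00 TPM, for counting error only. The means were 1.39 ± 0.565 and 2.42 ± 0.573 TPM (SD, n = 3 each), with a log2 fold change of -0.79 (SE 0.46, edgeR adjusted p 0.986). It was -0.61 with up to 1 substitution and -0.50 without NAFLD 2.

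rno-miR-141-3p had 1, 0 and 2 reads in NAFLD 1, 2 and 3 and 2, 0 and 1 reads in normal 1, 2 and 3. At this depth no difference was detectable, since a count of 0 allows up to 0.255 TPM in NAFLD 2 and 0.253 TPM in normal 2. It was removed by the filter on low counts before the test.

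**Figure D1:**
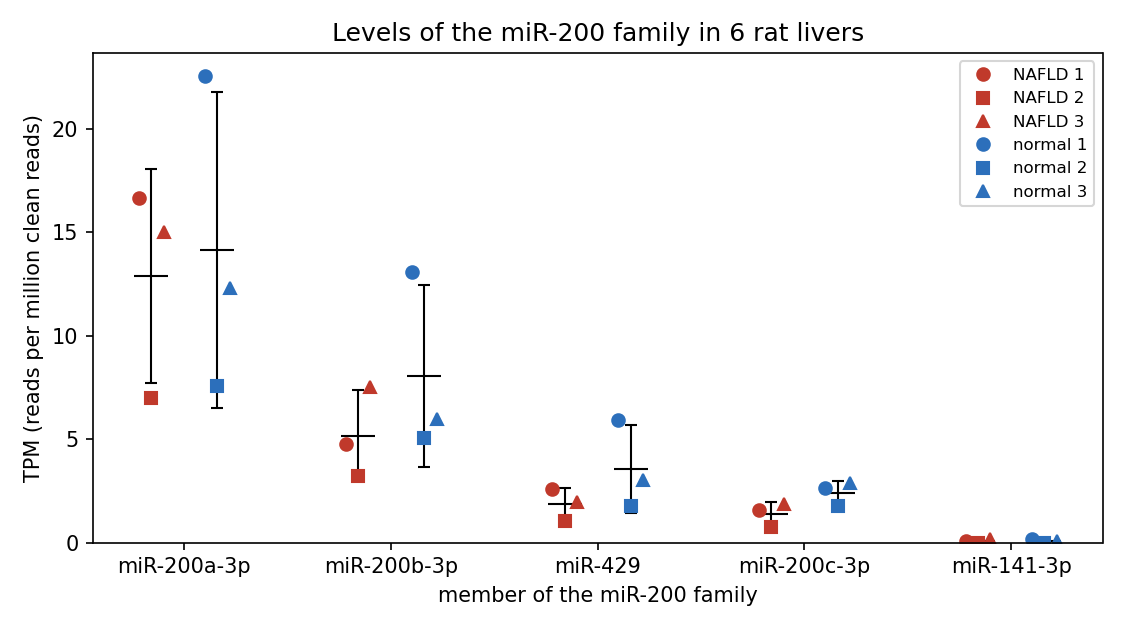
Level of each member in TPM (vertical axis) in the 3 NAFLD (red) and 3 normal (blue) libraries, with the symbol giving the replicate number and black lines the group mean ± SD. The groups overlap for every member, and normal 1 is the highest library for miR-200a-3p, miR-200b-3p and miR-429.

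Of the members, 0 of the 4 tested passed an adjusted p of 0.05, and 0 of 5 had groups that did not overlap in TPM. Over all 170 miRNAs tested with edgeR, 0.0% were higher in NAFLD at that threshold and 0.588% were lower, which was rno-miR-122-5p alone (log2 fold change -0.35, SE 0.045, adjusted p 0.00056), and 4.12% had groups that did not overlap. That single call was lost with edgeR's TMM factors, with the reads assigned to miRNAs as library size, with DESeq2 on clean reads and with limma. At an unadjusted p under 0.05, 3 of the 170 passed in this main edgeR fit, none of them a member. With edgeR's TMM factors the unadjusted p was 0.025 for rno-miR-429 and 0.031 for rno-miR-200c-3p (adjusted p 0.552 for both). The log2 fold changes of the 4 members were below 0 in the main fit, that of rno-miR-200a-3p turning above 0 in the cases given for it. Their median was -0.71 beside a median of 0.0076 over all tested miRNAs. By the exact permutation test of the TPM, two-sided, for which 3 libraries against 3 cannot go below 0.1, the p-values were 0.9 for rno-miR-200a-3p, 0.4 for rno-miR-200b-3p, 0.2 for rno-miR-200c-3p, 0.3 for rno-miR-429 and 0.8 for rno-miR-141-3p.

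The 2 seed classes were then set against each other within each library, a ratio that does not depend on the library size. The summed level of rno-miR-200b-3p, rno-miR-200c-3p and rno-miR-429 was 8.88, 5.02 and 11.3 TPM in NAFLD 1, 2 and 3 and 21.6, 8.59 and 11.9 TPM in normal 1, 2 and 3. That of rno-miR-200a-3p and rno-miR-141-3p was 16.7, 6.97 and 15.2 TPM in NAFLD 1, 2 and 3 and 22.7, 7.58 and 12.4 TPM in normal 1, 2 and 3. Nearly all of this second class was rno-miR-200a-3p, with 955 reads beside 6 of rno-miR-141-3p. Neither sum separated the groups, nor did the sum of all 5 members, which ran from 12.0 to 26.5 TPM in NAFLD and from 16.2 to 44.3 TPM in normal liver.

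The ratio of the first class to the second was 0.531, 0.720 and 0.749 in NAFLD 1, 2 and 3 and 0.952, 1.13 and 0.959 in normal 1, 2 and 3. All NAFLD libraries were below all normal ones, with means of 0.666 ± 0.118 and 1.01 ± 0.103 (SD, n = 3 each), a description with no test because it is a score over members chosen with results of these data known. It follows that the order held within the substitution sets too, NAFLD 1 below normal 1 and normal 3, and NAFLD 2 and NAFLD 3 below normal 2. This is no separate check. With up to 1 substitution the ratio was 0.531, 0.659 and 0.607 in NAFLD 1, 2 and 3 and 0.959, 0.843 and 0.959 in normal 1, 2 and 3, again without overlap. It did overlap when reads starting up to 2 bases away were added, at 0.754, 0.989 and 1.10 in NAFLD 1, 2 and 3 and 1.26, 1.49 and 1.07 in normal 1, 2 and 3.

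Of the ratios between single members, that of rno-miR-429 to rno-miR-200a-3p, both of the chromosome 5 cluster, was the one whose groups did not overlap in the exact counting. It was 0.155, 0.146 and 0.130 in NAFLD 1, 2 and 3 and 0.262, 0.233 and 0.247 in normal 1, 2 and 3. No test was run on it, and how often ratios of other miRNA pairs or sums separate these groups was not analysed. The ratios to rno-miR-200a-3p share their reads with the class ratio and are no separate results. The groups stayed apart with up to 1 substitution, where NAFLD 1 at 0.154 and normal 2 at 0.170 were the closest libraries, and with the shifted starts added. The ratios of rno-miR-200b-3p to rno-miR-200a-3p, rno-miR-429 to rno-miR-200b-3p, rno-miR-200c-3p to rno-miR-200b-3p and rno-miR-200c-3p to rno-miR-200a-3p overlapped in the exact counting, but that of rno-miR-200b-3p to rno-miR-200a-3p did not with up to 1 substitution. For the more abundant rno-miR-200b-3p, the ratio to rno-miR-200a-3p was 0.285, 0.463 and 0.503 in NAFLD 1, 2 and 3 and 0.581, 0.667 and 0.486 in normal 1, 2 and 3. With up to 1 substitution it was 0.287, 0.400 and 0.403 in NAFLD 1, 2 and 3 and 0.590, 0.484 and 0.483 in normal 1, 2 and 3, all NAFLD libraries below all normal ones.

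**Figure D2:**
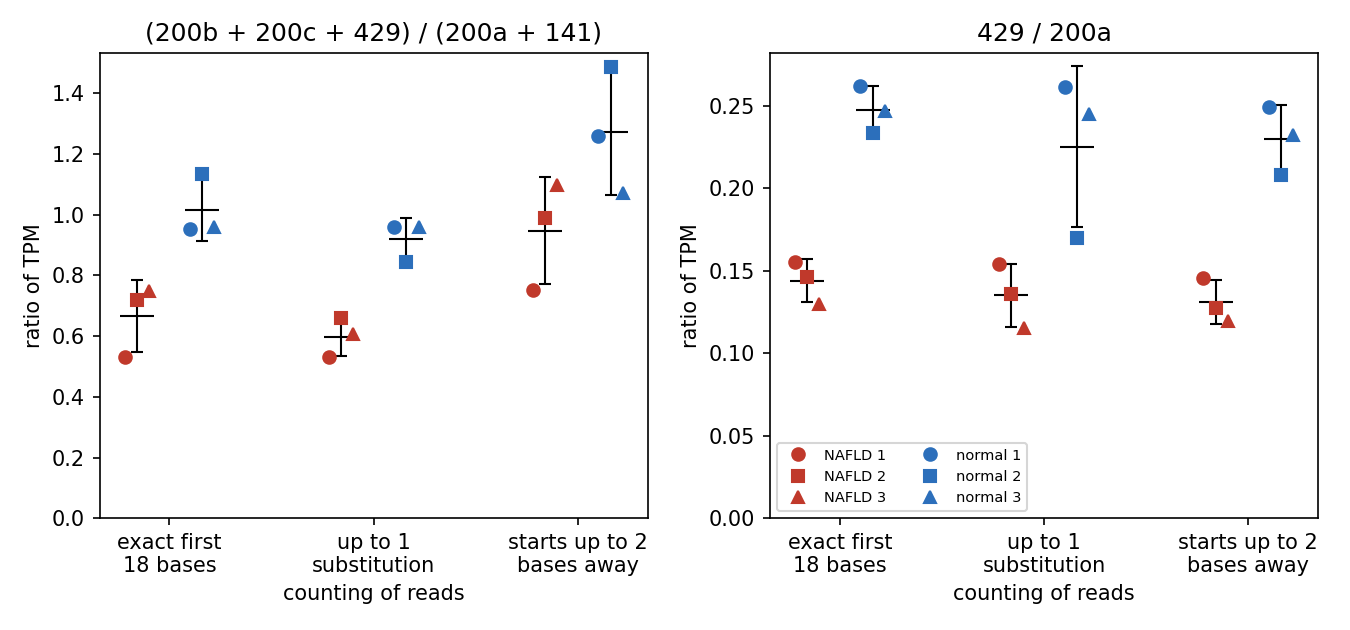
Ratio of the summed TPM of the seed classes (left) and of miR-429 to miR-200a (right), both axes from 0, per library under 3 ways of counting reads; red is NAFLD, blue is normal, symbols give the replicate number and black lines the group mean ± SD. The NAFLD libraries are lower without overlap in all but 1 panel position, the class ratio with starts up to 2 bases away, where NAFLD 3 at 1.10 is above normal 3 at 1.07. Shifted reads are counted with their member there, although their own seed differs.

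Reads with 1 substitution were found in every member with more than 6 reads in the libraries of high rate. For rno-miR-200a-3p they were 35.4%, 42.0% and 43.4% of reads in NAFLD 2, NAFLD 3 and normal 2, and 1.03%, 0.373% and 0.680% in NAFLD 1, normal 1 and normal 3. Over those 3 libraries of high rate together the share was 40.9%, rank 14 of 109 miRNAs with enough reads, whose median was 29.4%. For rno-miR-200b-3p it was 24.0%, 27.0% and 22.1% in NAFLD 2, NAFLD 3 and normal 2, together 24.9% and rank 65. For rno-miR-429 it was 36.8%, 37.8% and 22.2% in NAFLD 2, NAFLD 3 and normal 2, and 0 such reads were found beside the 30, 70 and 36 exact reads of NAFLD 1, normal 1 and normal 3. For rno-miR-200c-3p it was highest in NAFLD 2, at 43.8%, and lowest in NAFLD 3, at 21.4%, with normal 2 between them. These shares rest on few reads, and the 95% Wilson interval of rno-miR-200c-3p in NAFLD 2 ran from 23.1% to 66.8%. In each of those libraries the exact match left out a larger part of rno-miR-200a-3p than of rno-miR-200b-3p, while rno-miR-429 and rno-miR-200c-3p had no fixed place between or beside them.

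A few changes made up most of these reads of rno-miR-200a-3p. A16C was carried by 72 reads, A5C by 67, C4A by 41, C4G by 27 and A15C by 25, and none of these 5 was seen in NAFLD 1, normal 1 or normal 3. C4A, C4G and A5C lie inside the seed. C4T, which gives rno-miR-200a-3p the seed of the other class, was found in 4 reads, all in NAFLD 2 and NAFLD 3, which equal no other member. The same 4 reads are also 1 substitution, T17C, away from rno-miR-429, so the member they came from cannot be told. They are part of the shares given above for both members, and of neither member's level with up to 1 substitution.

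**Figure D3:**
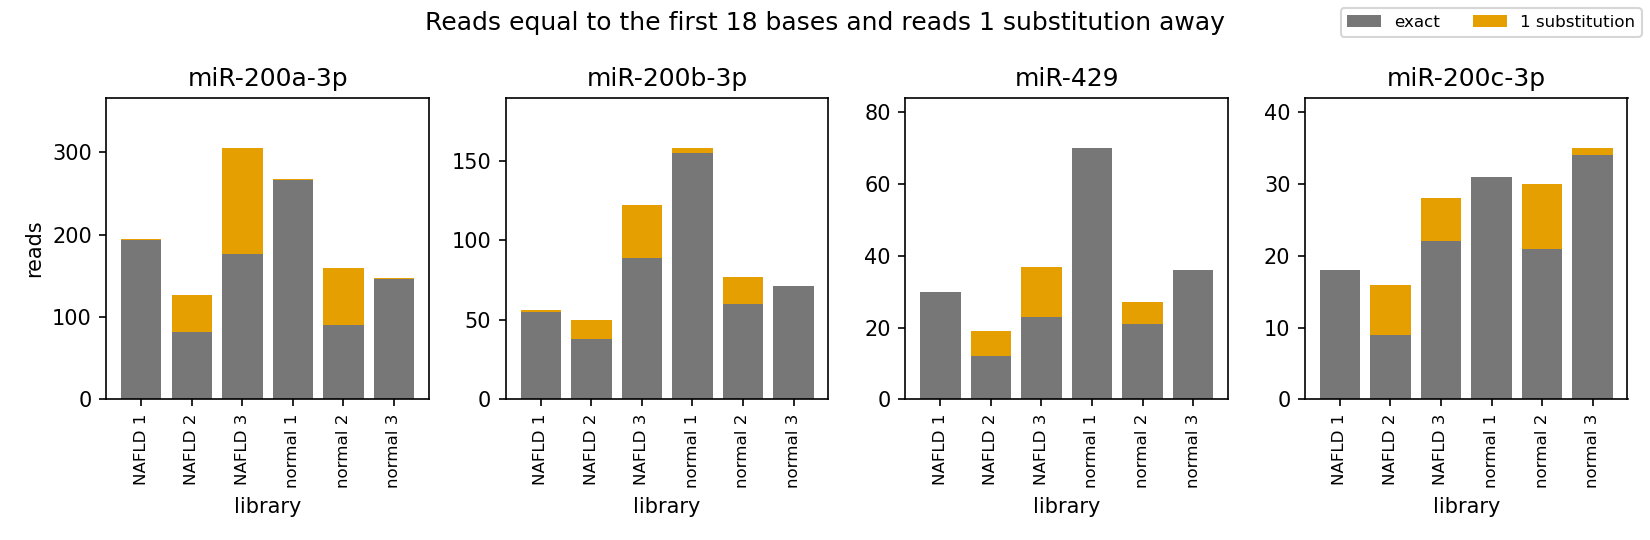
Reads per library (vertical axis, from 0, a scale of its own for each member) that equal the first 18 bases of a member (grey) or differ from them by 1 substitution (orange). The orange part is large in NAFLD 2, NAFLD 3 and normal 2, where it reaches 43.4% of miR-200a-3p reads in normal 2, and is absent or small in the other libraries.

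Members that differ by 1 base could exchange reads, so the bases past position 18, which the assignment did not use, were compared with the hairpins. Of 135 reads of rno-miR-200c-3p, 126 followed their own hairpin further than that of rno-miR-200b-3p, 9 fitted both alike and 0 followed rno-miR-200b-3p further. Of 192 reads of rno-miR-429, 191 followed their own hairpin further and 1 that of rno-miR-200b-3p. Of the 6 reads of rno-miR-141-3p, 4 followed their own hairpin further than that of rno-miR-200a-3p, 2 fitted both alike and 0 followed rno-miR-200a-3p further.

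The most frequent reads of rno-miR-200c-3p are shown because they differ from the listed mature form at the 3′ end. They are given as sequenced, in DNA letters, with bases that do not continue the hairpin in capitals.
rno-miR-200c-3p, read 1: taatactgccgggtaatgatgg
rno-miR-200c-3p, read 2: taatactgccgggtaatgatgga
rno-miR-200c-3p, read 3: taatactgccgggtaatgatggaA
rno-miR-200c-3p, read 4: taatactgccgggtaatgatggaT
rno-miR-200c-3p, listed form: taatactgccgggtaatgatg

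The first of these, 22 nt long, had 48 reads, the next, 23 nt long, 46, and the forms with an added A or T 16 and 10, while the listed 21 nt form had 3 reads. Most reads of rno-miR-200c-3p thus ran 1 or 2 bases further along the hairpin than the listed form. A search for the whole listed sequence alone would have found 0, 1 and 0 reads in NAFLD 1, 2 and 3 and 1, 0 and 1 in normal 1, 2 and 3.

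The most frequent read of rno-miR-141-3p, shown because it was 3 of the 6 reads, was also longer than the listed 22 nt form by 1 base.
rno-miR-141-3p, read 1: taacactgtctggtaaagatggc

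Added 3′ bases that do not continue the hairpin, a form of miRNA known as tailed, were common in the 2 most abundant members. They were found in 54.6% of reads of rno-miR-200a-3p, rank 15 of 133 miRNAs with enough reads, and in 47.4% of rno-miR-200b-3p, rank 25. In rno-miR-429 the share was 31.8%, and in rno-miR-200c-3p it was 25.9%, equal to the median of the 133 miRNAs. A single added T was the most frequent form in rno-miR-200a-3p, with 34.3% of reads, beside 12.7% with a single A, and in rno-miR-200b-3p, with 26.3% and 13.5%. In rno-miR-200c-3p a single T and a single A were nearly level, at 11.9% and 13.3%.

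The reads of rno-miR-200b-3p were also unusual at the 5′ end, which sets the seed. Of 835 reads from this arm, 468 began at the mature 5′ end, 46 began 1 base, 297 began 2 bases and 23 began 3 bases further in. Starts 2 bases in thus made up 35.6%, the second highest share of 127 miRNAs with enough reads after rno-miR-145-3p at 89.4%, beside a median of 0 over these miRNAs. In rno-miR-200a-3p the most used other start was 1 base in, with 7.26% of reads, and rno-miR-200c-3p and rno-miR-429 had 1 shifted read each. The reads with other starts are not in the levels of rno-miR-200b-3p above.

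The 5′ and 3′ ends of rno-miR-200b-3p went together. All 297 reads that began 2 bases in had a 3′ end off the hairpin, against 222 of the 468 reads at the mature start. In the shifted reads, 289 left the hairpin after base 23 of the mature numbering, and the added stretch was 2.44 bases long on average, against 1.25 bases in the tailed reads of the mature start. The stretch was made of T alone in 219 of the 297 reads. The shifted reads were thus not shorter, with a mean of 23.5 nt against 23.0 nt. Whether their letters also occur elsewhere in the genome was not analysed here.

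The share of rno-miR-200b-3p reads that started elsewhere was 51.8%, 47.9% and 48.3% in NAFLD 1, 2 and 3 and 41.3%, 45.5% and 30.4% in normal 1, 2 and 3. The NAFLD libraries were higher without overlap, at 49.3 ± 2.12% against 39.0 ± 7.78% (SD, n = 3 each), with an exact permutation p of 0.1, the smallest this design can give. Of 119 miRNAs with at least 9 reads in every library, 5.88% had NAFLD higher without overlap by this measure. The difference of 10.3 percentage points was 5.95 without normal 3, the lowest library. The share starting 2 bases in was 42.1%, 39.7% and 38.4% in NAFLD 1, 2 and 3 and 34.1%, 38.2% and 21.6% in normal 1, 2 and 3, so NAFLD 3 and normal 2 were nearly level.

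**Figure D4:**
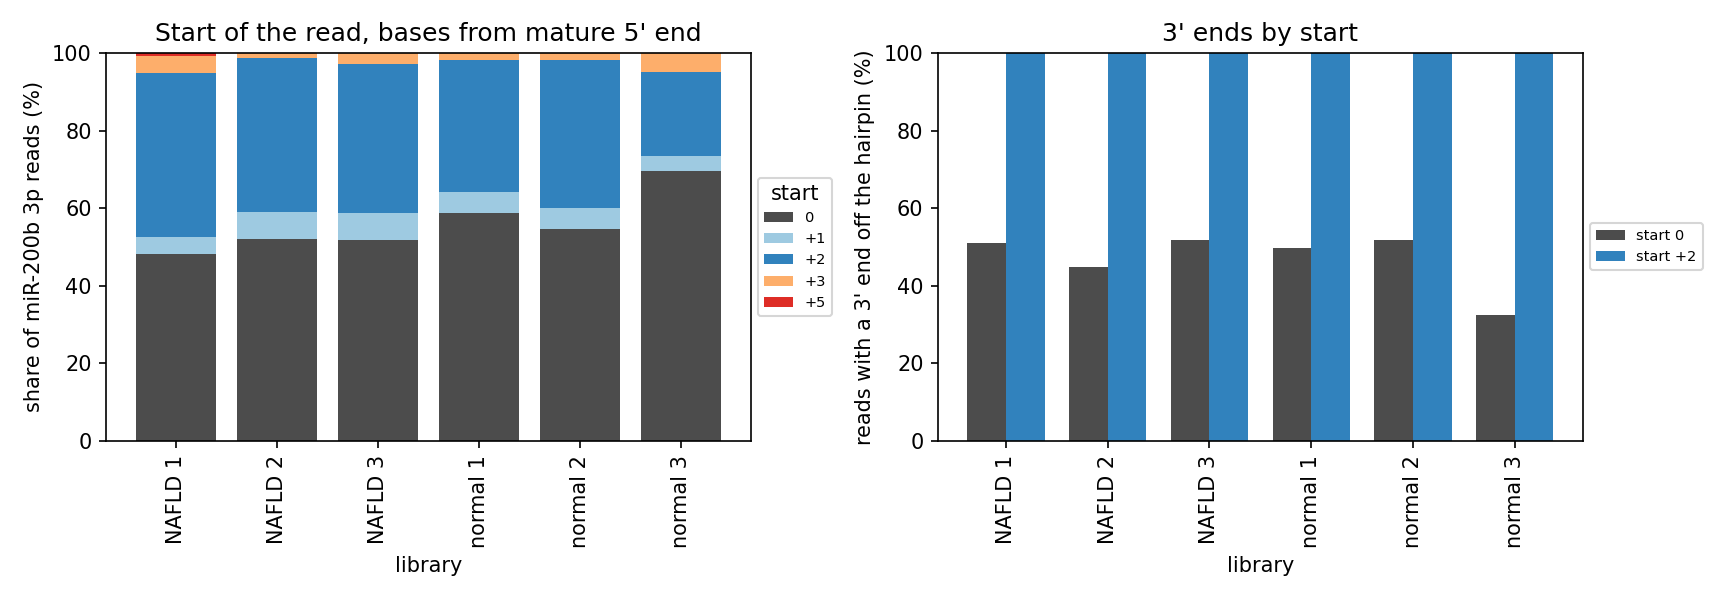
Share of miR-200b 3p reads by start, in bases from the mature 5′ end (left, % of reads), and share with a 3′ end off the hairpin for starts 0 and +2 (right, %), per library. Starts at +2 take 21.6% in normal 3 and 34.1% to 42.1% in the other libraries, and all of them have a 3′ end off the hairpin.

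3 further measures of read form, out of 12 compared over 4 members, had NAFLD higher without overlap, each with an exact permutation p of 0.1. The mean read length of rno-miR-200c-3p was 22.8, 22.8 and 22.9 nt in NAFLD 1, 2 and 3 and 22.7, 22.5 and 22.6 nt in normal 1, 2 and 3. That of rno-miR-429 was 22.2, 22.4 and 22.3 nt in NAFLD 1, 2 and 3 and 22.2, 22.1 and 22.0 nt in normal 1, 2 and 3, NAFLD 1 at 22.23 nt and normal 1 at 22.16 nt being the closest. Over the 119 miRNAs, 6.72% had a longer mean read in NAFLD without overlap.

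The share of rno-miR-429 reads with a 3′ end off the hairpin was 36.7%, 41.7% and 39.1% in NAFLD 1, 2 and 3 and 24.3%, 28.6% and 36.1% in normal 1, 2 and 3. NAFLD 1 and normal 3 differed by less than 1 read of the 30 and 36 behind them. Over the 119 miRNAs, 7.56% had a higher share in NAFLD without overlap. For rno-miR-200a-3p all 3 measures overlapped between the groups, with exact permutation p-values of 0.6.

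The 5p arms, the strands opposite the counted ones, were nearly empty apart from that of miR-200b. Among reads at the mature 5′ ends, rno-miR-200b-5p had 169, or 26.5% of both arms together. With starts up to 5 bases away included, this arm had 199 reads beside 835 of the 3p arm. At the mature 5′ end rno-miR-200a-5p had 2 reads, rno-miR-141-5p 1 and rno-miR-200c-5p 0, which allows at most 0.259 TPM in the library with the fewest clean reads. The mature 5p sequences of the chromosome 5 cluster are shown because they share a seed, in capitals, while their read counts differ so widely.
rno-miR-200b-5p: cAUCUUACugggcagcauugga
rno-miR-200a-5p: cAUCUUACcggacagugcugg

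rno-miR-200b-5p stood at 2.76, 1.28 and 2.29 TPM in NAFLD 1, 2 and 3 and at 4.22, 1.68 and 2.10 TPM in normal 1, 2 and 3. The groups overlapped, with normal 1 highest as for the 3p arm, and the log2 fold change was -0.34 (SE 0.48, edgeR adjusted p 0.986). The log2 ratio of the 5p to the 3p arm, with 0.1 TPM added to both, was -0.76, -1.28 and -1.68 in NAFLD 1, 2 and 3 and -1.61, -1.53 and -1.46 in normal 1, 2 and 3. Only NAFLD 1 and NAFLD 2 were above the normal libraries, and the difference was not larger than the spread, with an exact permutation p of 0.4. This ratio leaves out reads with other starts, whose share of the 3p arm was higher in NAFLD without overlap.

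The miRNAs whose pattern over the 6 libraries was most like that of the summed family were rno-miR-22-3p, rno-miR-21-5p and rno-miR-511-3p. Their log2(TPM + 1), each centred on its mean, differed from that of the family by a root mean square of 0.258, 0.300 and 0.315, beside a median of 0.486 over the 87 miRNAs compared. rno-miR-22-3p stood at 326, 168 and 217 TPM in NAFLD 1, 2 and 3 and at 445, 154 and 299 TPM in normal 1, 2 and 3, so normal 1 was the highest and the replicate 2 libraries the lowest here too. All miRNAs compared share the 6 libraries and their substitution sets.

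Other miRNAs known from epithelia gave no separation of the groups. All 7 on the list were found in the reference, 1 of them, rno-miR-205, known from squamous epithelium, had no read, and 5 were tested, of which 0 passed the edgeR threshold. The log2 fold changes had a median of -0.31, with 1 of 5 above 0. Their summed level was 119 to 333 TPM in NAFLD and 104 to 270 TPM in normal liver, and rno-miR-31a-5p was the highest, with a mean of 167 TPM. rno-miR-375-3p, a miRNA of glandular epithelium and endocrine cells, stood at 19.0, 13.3 and 20.5 TPM in NAFLD 1, 2 and 3 and 23.6, 15.0 and 21.5 TPM in normal 1, 2 and 3, a level close to that of rno-miR-200a-3p.

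Of the lists for other liver cells, that of hepatocytes differed between the groups in its sum, through rno-miR-122-5p. The 5 hepatocyte miRNAs summed to 474379 to 481673 TPM in NAFLD and 583129 to 621984 TPM in normal liver. Of these, 1 of 5 was called lower, the call that those other scalings and tools did not make. The rest of the list overlapped between the groups. The log2 fold changes of the 5 had a median of -0.038, with 2 of 5 above 0. The 5 miRNAs of stellate and smooth muscle cells, with rno-miR-199a-3p highest at a mean of 359 TPM, summed to 532 to 665 TPM in NAFLD and 342 to 593 TPM in normal liver. The 2 of endothelium, led by rno-miR-126a-5p at 29.7 TPM, summed to 23.5 to 48.4 and 14.7 to 41.1 TPM. The 2 matched of 3 for red blood cells, led by rno-miR-451-5p at 31.1 TPM, summed to 24.0 to 67.0 and 26.3 to 42.9 TPM, and the 5 matched of 6 for leukocytes, led by rno-miR-146a-5p at 20.7 TPM, to 26.5 to 39.4 and 20.2 to 42.7 TPM. In these 4 lists 0 miRNAs passed the edgeR threshold and the sums overlapped. rno-miR-199a-3p by itself stood higher in NAFLD without overlap, at 439, 400 and 430 TPM in NAFLD 1, 2 and 3 against 294, 210 and 384 TPM in normal 1, 2 and 3. Its log2 fold change was 0.51 (SE 0.38, edgeR adjusted p 0.986), and 4.12% of the 170 miRNAs tested had groups that did not overlap. The log2 fold changes on the stellate and smooth muscle list ran from -1.29 to 0.51, with 3 of 5 above 0. The part of these cells in the levels of the miR-200 family was not tested, and since no mRNA or protein of cholangiocytes was measured, neither was the origin of the family's reads in biliary epithelium.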

How the data were processed

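Small RNA libraries of 3 NAFLD and 3 normal rat livers, 1 per rat, were grouped by their sample labels. The authors cleaned the reads of gel-purified small RNA of low-quality, adaptor, poly A and short ones, and deposited a list of the distinct reads left in each library with their counts, neither normalized nor filtered for a genome match. The submitters' processing notes name the builds Rnor_5.0 and rn5. The counts summed to the clean reads of the deposited logs in all 6 libraries.

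Tags were assigned to 678 distinct first-18-base keys of 724 RefSeq mature rat entries (GRCr8). Mature entries were at hand for 2 members, and the first 18 bases of the other 3 were read from the hairpin entry at the best ungapped match to a listed member. TPM was the reads per 1000000 clean reads. The main test was the quasi-likelihood test of edgeR 4.0.16, run in R 4.3.3 (glmQLFit, then glmQLFTest, low counts removed by filterByExpr, clean reads as library size, no covariate, Benjamini-Hochberg over all 170 miRNAs tested, threshold 0.05). SE was the size of the log2 fold change over the root of F. DESeq2 1.42.0 and limma 3.58.1 were alternatives. Read forms and single members' TPM were compared by exact permutation tests of the difference in group means, two-sided. Shares of reads have 95% Wilson intervals and a count of 0 allows 3 counts, both for counting error only. Python 3.11.15, pandas 2.3.3, numpy 2.4.6, scipy 1.17.1 and matplotlib 3.10.9 were used.

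Named miRNAs were the 5 members and their 5p arms, the highest of each cell type list, the 3 of most like pattern and the neighbours in rank. rno-miR-375-3p, rno-miR-205 and rno-miR-145-3p were named after their values were seen. Members and lists were chosen with earlier results of these data known. Reads with 1 substitution, other starts, the replicate number as a block, other scalings and leaving out each library were tried as alternatives. Target genes and the genome match were not analysed here.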

Additional observations from a re-analysis of the deposited data

How the results depend on the processing

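With the 2 settings added after seeing the data, both allowing 1 substitution, no fit gave a member an adjusted p under 0.05, and the smallest was 0.334. Without adjustment, the edgeR p of rno-miR-429 was 0.025 with TMM factors and 0.020 with the replicate block. It was 0.031 with TMM and 1 substitution, 0.028 without NAFLD 1 and 0.019 without normal 2. DESeq2 with its own size factors gave 0.034. For rno-miR-200c-3p the edgeR p was 0.031 with TMM, 0.043 with the block and 0.022 with TMM and 1 substitution. Every other unadjusted p of a member was above 0.05. The log2 fold changes of rno-miR-200b-3p, rno-miR-200c-3p and rno-miR-429 were below 0 in every fit. That of rno-miR-200a-3p, -0.14, was 0.046 with the reads assigned to miRNAs as library size, 0.22 with the substitution sets as a covariate, 0.13 with up to 1 substitution and 0.093 when the replicate block was added to that. These 3 choices without the block moved the median of all miRNAs to 0.20, 0.23 and 0.15, and relative to it rno-miR-200a-3p stood at -0.15, -0.0077 and -0.016. Leaving out each library gave -0.44 to 0.37 for rno-miR-200a-3p, -1.01 to -0.093 for rno-miR-200b-3p, -1.05 to -0.50 for rno-miR-200c-3p and -1.27 to -0.37 for rno-miR-429.

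The number of miRNAs past the threshold, 1, was 0 with edgeR's TMM factors (12 at an unadjusted p under 0.05), with the reads assigned to miRNAs as library size (6), with DESeq2 on clean reads (2), with limma on log2(TPM + 1) (2) and with TMM and 1 substitution (19), and 1 to 2 without each library, 2 without NAFLD 1. The cause was not tested.

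Leaving out 1 library turned the group difference of 4 read-form measures, all overlapping between groups: 3′ ends off the hairpin in rno-miR-200a-3p (-0.79 to 8.48 percentage points), rno-miR-200b-3p (-1.56 to 8.07) and rno-miR-200c-3p (-2.13 to 7.17), and other starts in rno-miR-200a-3p (-0.61 to 2.90). Other starts in rno-miR-200b-3p differed by 5.95 to 13.5 points without each library. The difference in the ratio of the seed classes, -0.35, was -0.28 to -0.39 without each library. Searching for whole mature sequences gave no value for the members tested.

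The libraries are numbered 1 to 3 in both groups, and neither the labels nor the study's methods state that the numbers pair them. Deviations from the group mean had r of 0.14, 0.34 and -0.55 for the same numbers. For different numbers r ran from -0.52 to 0.45, so these values cannot decide whether the libraries were paired. With the replicate block the log2 fold changes were -0.093, -0.59, -0.82 and -0.89 for rno-miR-200a-3p, rno-miR-200b-3p, rno-miR-200c-3p and rno-miR-429 (edgeR adjusted p 0.578 to 0.980), and the mean difference in the class ratio was -0.35. The members had 6 to 955 reads each, and a p that misses the threshold does not show that their levels were alike.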
